A study of Zea mays with 56 samples.

Results

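This study read, in maize, where transposons of the Mutator (Mu) family sit in the genome, and the account here sets leaf of Mu-active plants against leaf of Mu-inactive plants. The comparison used 12 of the 56 libraries: 8 from leaf of 6 Mu-active plants (numbered 74, 75, 76, 78, 79 and 83) and 4 from leaf of 3 Mu-inactive plants (numbered 1, 2 and 3). They were chosen by their labels alone. In all, 876604 of the 2253850 insertion sites in the tables had at least 1 count in a leaf library.

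Leaf of both groups is labelled as W22, an inbred background, and was sampled from seedlings at the V2 stage. Endosperm numbered 74 and another endosperm library of the series are labelled as joining B73 MuKiller with W22 MuActive. Neither was compared here, but both were among the undiluted libraries used to choose the reference sites described below. Leaf, root and pollen of plant 74 are labelled W22 MuActive alone. MuKiller is a locus known for silencing MuDR. The Mu-active plants came from a cross of a Mu-active father with a Mu-inactive mother, and all 6 belonged to 1 family. The Mu-inactive plants were of the line that served as that mother. Mu-active seedlings grew in vermiculite before transfer to soil and Mu-inactive seedlings grew in soil, so growth medium and genotype cannot be told apart. DNA was prepared by the same kit in both groups. MuSeq2, the assay, shears DNA, ligates an adapter and amplifies by PCR the stretches of genome that adjoin Mu ends. Plants 74 and 75 and Mu-inactive plant 3 had 2 technical libraries each, which were averaged, so the plant was the replicate. No label ties the Mu-inactive plants to separate parents, so the p-values measure the spread between these plants.

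Mu elements are DNA transposons whose movement depends on the autonomous element MuDR, which encodes the transposase. In a Mu-active plant, elements that were passed on through the gametes are present in every cell, while new insertions made during development are present in sectors of cells or in single cells. Mu elements duplicate a short stretch of target DNA on insertion, so that an insertion is read from a left and a right border a few bases apart. In a Mu-inactive line the old elements remain in the genome but do not move.

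The counts are reads at each insertion site, left and right borders together unless stated. Total counts per library ran from 606090 to 1881017 in Mu-active leaf and from 1646591 to 2511743 in Mu-inactive leaf. To compare sites between libraries, each count was divided by the library's reference level, which is its median count over 28 sites, namely those whose count reached 10 in all 50 undiluted libraries of the series. This quotient is called relative abundance here, and a value of 1 is the level of a typical reference site. Reference levels ran from 8618 to 23714 in Mu-active leaf and from 50220.5 to 80688 in Mu-inactive leaf, so a single count equalled 4.22e-05 to 0.000116 in Mu-active leaf and 1.24e-05 to 1.99e-05 in Mu-inactive leaf. The Mu-inactive libraries therefore reached lower abundances. The second library of plant 75 carries the number 76 in its title and 75 in its library name. Sites at 0.1 or more in 1 Mu-active plant alone were listed with plant 75 judged by its first library only. The second library held 16 of the 16 such sites of plant 75 at that level and 0 of the 16 of plant 76, so it was kept under plant 75.

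Leaf of the 2 groups had few sites in common. Of the 876604 leaf sites, 260 were read in both groups, 864590 in Mu-active leaf only and 11754 in Mu-inactive leaf only. Sites of Mu-active leaf alone were 98.6% of the total, and sites of both groups were 0.0297%. The shared sites nevertheless held most of the counts in Mu-inactive leaf. A core of 33 sites, called resident here because each had a relative abundance of at least 0.01 in every Mu-inactive plant, took 36.2 ± 3.4% of all counts in Mu-active leaf (SD, n = 6) and 99.8 ± 0.13% in Mu-inactive leaf (SD, n = 3). The other sites common to both groups took 10.6 ± 4.8% in Mu-active leaf and 0.0319 ± 0.013% in Mu-inactive leaf. Sites of 1 group alone took 53.3 ± 5.8% in Mu-active leaf and 0.183 ± 0.12% in Mu-inactive leaf. By plant, this last share was 54.4%, 51.0%, 43.5%, 52.7%, 59.5% and 58.5% in Mu-active plants 74, 75, 76, 78, 79 and 83, and 0.261%, 0.240% and 0.0472% in Mu-inactive plants 1, 2 and 3. The lowest Mu-active plant lay far above the highest Mu-inactive plant.

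Sites were more numerous in Mu-active leaf in all 4 classes of abundance compared. At a relative abundance of 0.1 or more there were 88, 73, 74, 85, 85 and 66 sites in the Mu-active plants, in the order above, and 29, 29 and 30 in the Mu-inactive plants. The means were 78.5 ± 8.7 in Mu-active leaf and 29.3 ± 0.58 in Mu-inactive leaf (SD, n = 6 and 3). Between 0.01 and 0.1, Mu-active plants had 44 to 118 sites, with a mean of 80.0 ± 27.3, and Mu-inactive plants had 2.5 to 4 sites, with a mean of 3.50 ± 0.87, counting technical libraries by their average. In the class from 0.001 to 0.01 the Mu-active plants had 1175 to 2034 sites and the Mu-inactive plants 1 to 3. Below 0.001 the Mu-active plants had 74759 to 215704 sites and the Mu-inactive plants 853 to 5409. The groups did not overlap in any of the 4 classes. On the log2(number + 1) scale the groups differed by 1.38, 4.12, 9.10 and 5.64 from the highest class to the lowest. Each difference had an adjusted p of 0.0119 (two-sided exact permutation test over plants, Benjamini-Hochberg over the 4 classes). That is the smallest value that the 84 arrangements of 6 and 3 plants can give.

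**Figure D1:**
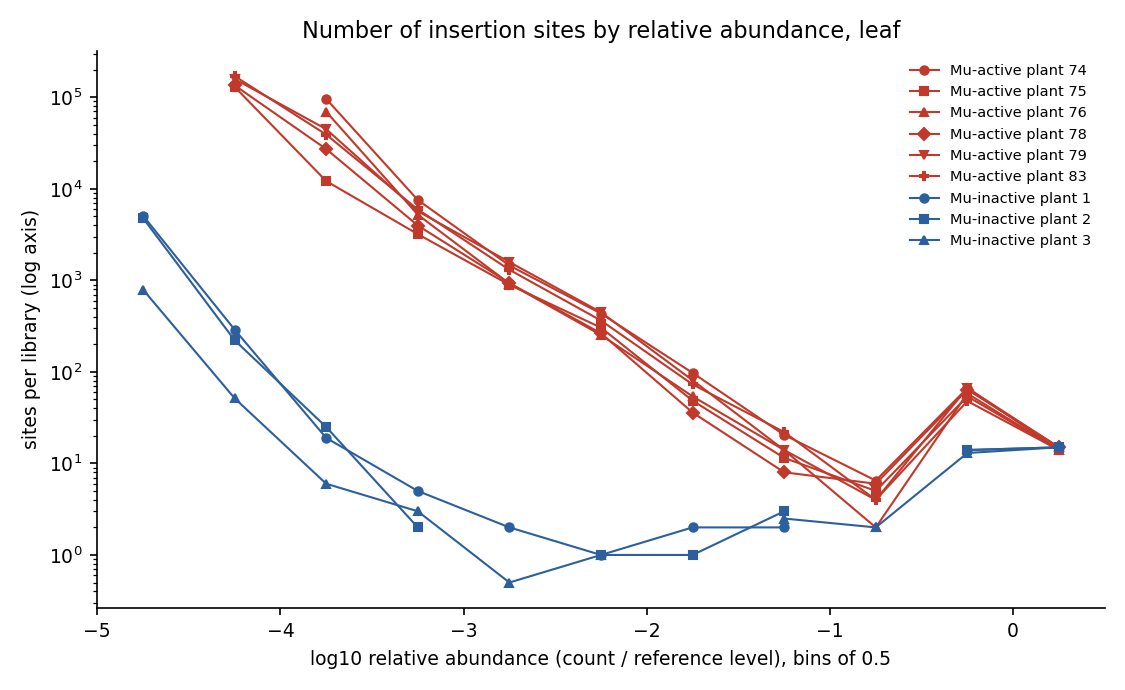
Number of insertion sites per library (log axis) in bins of log10 relative abundance, for the 6 Mu-active plants (red) and the 3 Mu-inactive plants (blue), with technical libraries averaged and empty bins left out. All plants have a peak near the reference level at the right, and between a relative abundance of 0.001 and 0.01 the Mu-active plants have 1175 to 2034 sites while the Mu-inactive plants have 1 to 3.

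The number of sites depends on depth, so the libraries were also thinned to the lowest reference level among them, 8618 counts. The expected number of distinct sites at that level was 102805, 74308, 76076, 84796, 125623 and 113163 in Mu-active plants 74, 75, 76, 78, 79 and 83. In Mu-inactive plants 1, 2 and 3 it was 735, 739.7 and 196. The mean was 96128 ± 21030.2 in Mu-active leaf and 557 ± 313 in Mu-inactive leaf, a difference of 7.64 on the log2 scale (exact permutation p = 0.0119, two-sided, 6 against 3 plants). Mu-inactive plant 3 had fewer sites than plants 1 and 2 in both of its libraries, and without it the difference was 6.998. Matching the reference level leaves the totals unequal, and Mu-inactive libraries then keep fewer counts. Thinned to the lowest library total, 606090 counts, the means were 87441 in Mu-active leaf and 1110 in Mu-inactive leaf, 6.55 apart on the log2 scale (exact permutation p = 0.0119). Thinned to the reference level of 8618 with at least 2 counts required per site, the means were 21360.3 in Mu-active leaf and 59.8 in Mu-inactive leaf. At that reference level with a count at each border required, they were 10047 in Mu-active leaf and 29.1 in Mu-inactive leaf. Reads amplified by PCR need not come from separate molecules, and for that reason the thinning, intervals and floors given here cover counting error only.

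Technical libraries show how far a low count repeats. Among sites below 0.1 that had 1 count in the first library, 16.3% of 84152 in plant 74 and 20.2% of 108106 in plant 75 were read again in the second library, against 1.30% of 617 in Mu-inactive plant 3. Sites of 2 to 4 counts were read again in 48.0% (plant 74) and 48.5% (plant 75) of cases, against 10 of 50, or 20%, in Mu-inactive plant 3. At 10 counts or more, 1917 of 1917 sites in plant 74 and 2875 of 2883 in plant 75 returned, and so did 4 of 4 in Mu-inactive plant 3. Mu-inactive plants 1 and 2 had no second library.

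The 33 resident sites lay on all 10 chromosomes, with 9 on chromosome 2, 5 each on chromosomes 1 and 8, and 1 to 3 on each of the others. All 33 were read in all 6 Mu-active plants. The level that chose them left a gap: the lowest resident site had a relative abundance of 0.0122 in its lowest Mu-inactive plant, and the highest of the sites left out had 0.00258. Their positions differed from those of other sites in a simple respect. An insertion in the tables normally spanned 9 bp from border to border, as 99.9942% of all sites did, yet only 11 of the 33 resident sites did so. At the other 22 the left border lay at a lower coordinate than the right, and the borders were 66 to 7196 bp apart (median 1831.5 bp). In all, 29 leaf sites had that order with borders more than 50 bp apart. At 4 resident sites a single border held every read in both groups. At 14 of the 33 the combined table was not the sum of the border tables but 2 times the larger border in some library, so the level of a site read mostly from 1 border is doubled there in both groups.

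By the rule for the highest levels in Mu-inactive leaf, 5 resident sites were followed in detail. At chr9:149235004-149236775 the relative abundance was 1.39, 1.58, 1.33, 1.68, 1.62 and 1.88 in the Mu-active plants and 2.41, 2.79 and 1.90 in the Mu-inactive plants. The groups did not overlap, though Mu-active plant 83 came close to Mu-inactive plant 3. Nearly all of its reads came from the right border, 106357 against 20 from the left in Mu-active leaf and 295255 against 23 in Mu-inactive leaf. At chr1:272293892-272298698 the levels were 0.887 to 1.28 in Mu-active leaf and 1.79 to 2.01 in Mu-inactive leaf, again without overlap. At chr5:207534725-207534733 they were 1.21 to 1.67 in Mu-active leaf and 1.51 to 2.14 in Mu-inactive leaf, and these ranges overlapped. The remaining 2 sites, both on chromosome 2, varied among the Mu-active plants and are described next.

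Along chromosome 2, 3 resident sites split the Mu-active plants in the same way. This set was picked after its values were seen, for levels that varied more than 2-fold among Mu-active plants and less than that among Mu-inactive plants, and it is described without a test. Of the 33 resident sites 5 met that criterion, and the other 2 lay on other chromosomes and split the plants otherwise. Site chr1:104590546-104591797 had 0.434 and 0.336 in plants 74 and 76 and 0.687 to 0.840 in the other 4, against 0.588 to 0.892 in Mu-inactive leaf. Site chr9:24011345-24011353 had 1.00 and 1.18 in plants 75 and 83 and 0.480 to 0.649 in the other 4, against 0.837 to 1.5 in Mu-inactive leaf. At chr2:73902765-73904517 the levels were 1.21 and 1.41 in plants 74 and 78 but 0.715, 0.583, 0.696 and 0.772 in plants 75, 76, 79 and 83, against 1.78, 2.02 and 1.91 in the Mu-inactive plants. At chr2:142959280-142961386 plants 74 and 78 had 1.32 and 1.61 and the other 4 Mu-active plants 0.627 to 0.846, against 1.61 to 1.90 in Mu-inactive leaf. At chr2:146442692-146444522 plants 74 and 78 had 1.24 and 1.44 and the other 4 Mu-active plants 0.552 to 0.748, against 0.923 to 1.20 in Mu-inactive leaf. At each of these 3 sites, plants 74 and 78 stood above the remaining Mu-active plants without overlap. Variation among Mu-active plants was wider at chr1:18957402, chr2:78235838 and chr8:44857168 (3.76-, 7.88- and 5.16-fold), with plants 74 and 76 lowest at each. These sites did not meet the criterion because they also varied 2.35-, 5.02- and 4.24-fold among Mu-inactive plants. Their mean levels in Mu-inactive leaf were low, at 0.0477, 0.0292 and 0.0897.

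**Figure D2:**
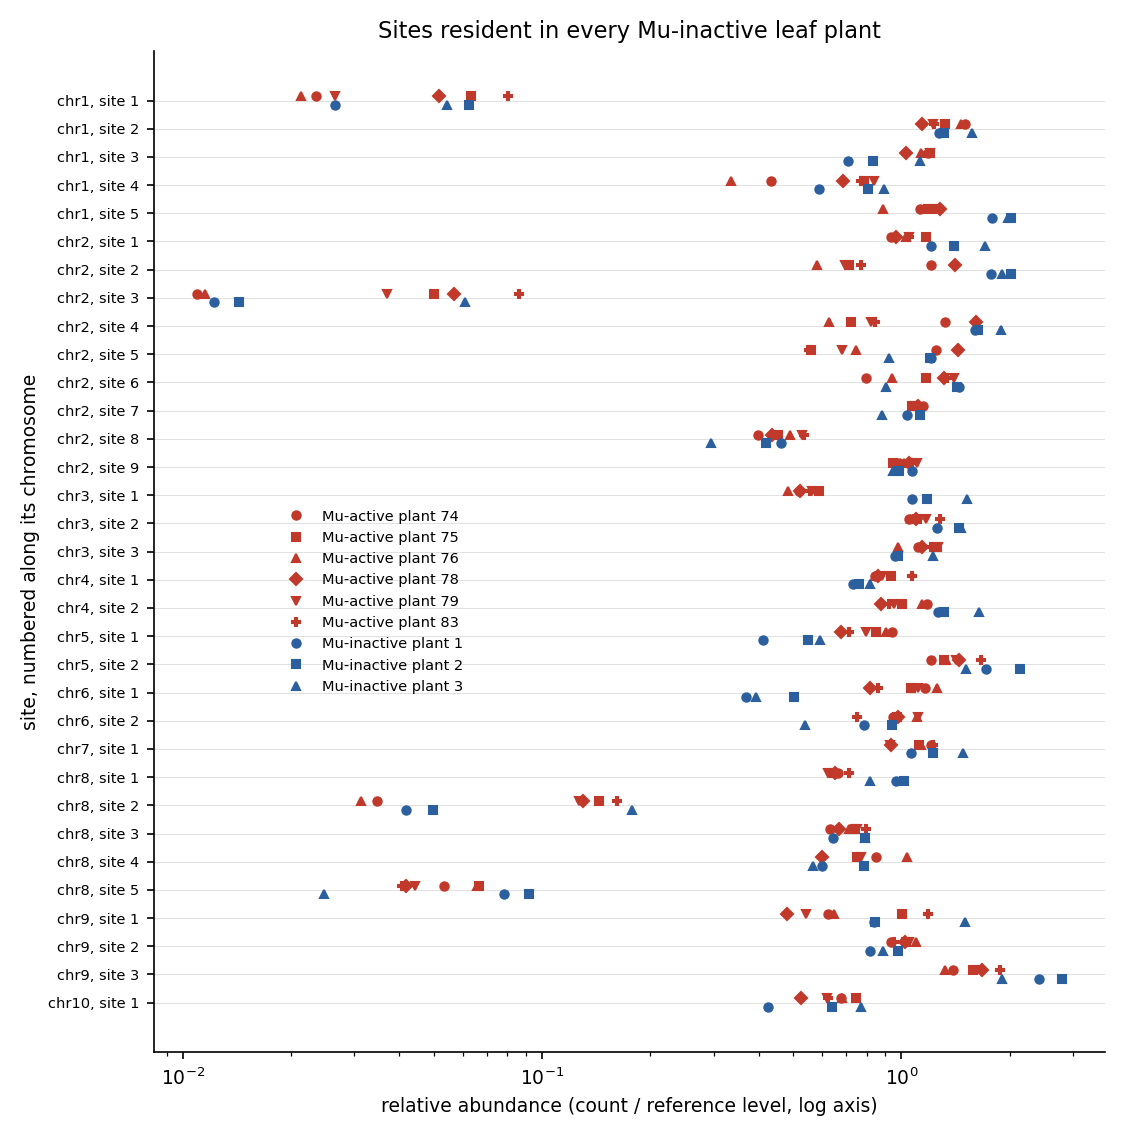
Relative abundance (log axis) of the 33 resident sites in each Mu-active plant (red, upper row of each site) and each Mu-inactive plant (blue, lower row), with sites numbered along their chromosome. Most sites lie between 0.3 and 3 in both groups, plants 74 and 78 lie apart from the other Mu-active plants at sites 2, 4 and 5 of chromosome 2, and 4 sites averaged below 0.1 in Mu-inactive leaf.

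A test of single sites was run on the counts with edgeR's quasi-likelihood method, with each library scaled to its reference level, for the 673 sites that had at least 10 counts in at least 3 plants. It called 634 sites higher in Mu-active leaf, 94.2% of those tested, and 8 lower, 1.19% of those tested (adjusted p under the threshold of 0.05 by Benjamini-Hochberg over all 673). Most sites that could be tested passed the filter through Mu-active leaf alone and so had to differ: 608 of the 634 had no count in Mu-inactive leaf. Without Mu-active plant 75 or 83, 408 and 401 sites were called higher, with fewer sites passing the filter. Of the 33 resident sites, 8 were called lower, 2 higher and 23 neither, and their median log2 fold change was -0.10. Over all 673 sites the median log2 ratio of mean levels was 5.75, with sites unread in Mu-inactive leaf set to a floor of 3 counts over its 4 libraries. Since 28 of the resident sites define the scale, their changes are relative to their own median. With library totals as the scale, 28 resident sites were called lower and 0 higher, and log2 values over all tested sites moved by a median of -0.72. Without Mu-inactive plant 2, 4 sites were called lower in place of 8. With a filter of 1 count in 3 plants, and with no filter, none of the 10 calls at resident sites was kept (smallest adjusted p 0.406 and 0.144 by edgeR), at the same folds.

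Of the 8 sites called lower, the one with the largest fold was chr3:122342380-122342445, whose borders lie 66 bp apart. Its levels were 0.517, 0.591, 0.482, 0.520, 0.562 and 0.555 in the Mu-active plants and 1.07, 1.18 and 1.53 in the Mu-inactive plants. Every Mu-active plant was thus below every Mu-inactive plant, by 2.34-fold on average (log2 fold change -1.23, SE 0.21, adjusted p = 0.000435 in edgeR's quasi-likelihood test). The site at chr2:73902765 was 2.12-fold lower in Mu-active leaf (adjusted p = 0.00487 by edgeR), and the site at chr2:142959280 was 1.73-fold lower (adjusted p = 0.0278 by edgeR), a call lost when any 1 Mu-inactive plant was left out (adjusted p 0.0539 to 0.0887). The site at chr1:272293892 was 1.67-fold lower (adjusted p = 0.00148 by edgeR) and the site at chr9:149235004 was 1.5-fold lower (adjusted p = 0.00626 by edgeR). The combined count of this last site was 2 times its right border, and with the sum of the borders its call was lost (log2 fold change -0.41, adjusted p = 0.0918 by edgeR). Combined counts were also doubled in some library at chr1:272293892 and chr2:142959280. Their direction and call were kept in 7 and 8 of 10 other settings that left out no plant.

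Of the sites called higher, 4 had a count in every Mu-inactive plant. Resident site chr6:70998003-70998011 had levels of 1.16, 1.06, 1.25, 0.818, 1.11 and 0.860 in the Mu-active plants and 0.369, 0.503 and 0.393 in the Mu-inactive plants, 2.47-fold higher in Mu-active leaf (SE 0.25 on the log2 scale, adjusted p = 0.000775 by edgeR). With library totals as the scale its log2 fold change was 0.07 and it was not called. Its combined count was 2 times the larger border in some library. Its mean in Mu-active leaf was 0.720 with the sum of the borders, against 1.04 as deposited. Direction and call were kept in 6 of 10 other settings that left out no plant. Resident site chr5:120060250-120061749 had 0.677 to 0.943 in Mu-active leaf and 0.410 to 0.593 in Mu-inactive leaf, 1.57-fold higher (adjusted p = 0.0292 by edgeR), but it was called lower with library totals as the scale and in the right border table. Its borders behaved differently: Mu-active leaf had 78068 left and 27940 right reads, and Mu-inactive leaf 47076 left and 86202 right reads. The other 2 sites belong to the class described next, and both lie on chromosome 6. At chr6:99331360-99331368 Mu-active plants 74, 76 and 78 had levels of 0.667, 0.692 and 0.667, while plants 75, 79 and 83 had 0.000119, 0.000119 and 0.000213 from 5, 2 and 5 counts, and Mu-inactive plants 1, 2 and 3 had 1, 2 and 3 counts. At chr6:90428447-90428455 plants 74, 76 and 79 had 0.680, 0.652 and 0.708, plants 75 and 83 had 5 and 2 counts, plant 78 had 0, and the Mu-inactive plants had 7, 5 and 3 counts. The edgeR call of this last site (adjusted p = 0.0182) was lost without any 1 Mu-inactive plant (adjusted p 0.0542 to 0.0609). Both sites reached 10 counts in Mu-active plants only. They passed the filter through that group alone, so they too had to differ.

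The other 227 sites of both groups were of 3 kinds. Within 10 bp of a border of a resident site lay 50 of them, with a median of 5.5 counts summed over Mu-active leaf and 2 over Mu-inactive leaf. A further 33 reached 0.1 in at least 1 Mu-active plant. At these the median level was 0.637 in the Mu-active plants that carried them at 0.1 or more, 9.68e-05 in the Mu-active plants below 0.01 and 9.92e-06 in Mu-inactive leaf, where no site had more than 15 counts in all. The remaining 144 had medians of 2 counts in Mu-active leaf and 2 in Mu-inactive leaf.

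Beyond the resident sites, 176 sites reached a relative abundance of 0.1 in at least 1 Mu-active plant, and 143 of them had no count in Mu-inactive leaf. They were found 293 times over the 6 plants. Their levels clustered below the reference level, with a median of 0.626, and 80% lay between 0.338 and 0.834. Borders were both read in 265 of the 293 cases (90.4%), and 169 of the 176 sites spanned 9 bp. Plants 74, 75, 76, 78, 79 and 83 held 59, 43, 45, 55, 55 and 36 of them. At that level 120 sites were in 1 plant, 18 in 2 plants, 23 in 3, 9 in 4, 4 in 5 and 2 in 6. They lay on all 10 chromosomes, from 9 on chromosome 10 to 29 on chromosome 3.

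Among 20 sites that had 10 counts or more in each Mu-active plant and none in Mu-inactive leaf, the 5 of highest mean were followed. On chromosome 9, 2 of them were at a high level in all 6 plants. The levels at chr9:20420229-20420237 were 0.542, 0.540, 0.715, 0.569, 0.513 and 0.719, with the combined count at 2 times the right border. With the sum of the borders they were 0.327 to 0.490, at least 28768-fold above the floor of 3 counts over the 4 Mu-inactive libraries. At chr9:11958559-11958567 the deposited levels were 0.476 to 0.628, at least 44867-fold above the floor in the deposited counts. At the first site 38586 of the reads were right and 53 left, and at the second 31736 were right and 37031 left. At chr2:31759211-31759219 plants 74, 76, 78, 79 and 83 had 0.573 to 0.694, while plant 75 had 0.000578 from 24 counts over 2 libraries. At chr10:83076002-83076003 plants 74 and 83 had 0.794 and 0.882 and the other 4 plants 0.000774 to 0.00226. The fifth of these sites, chr2:47365704-47365712, had 0.00278 to 0.0128 in all 6 plants and lay within 10 bp of a resident site. Levels at these last 2 sites were also doubled in some libraries, and their means were 0.181 and 0.00503 with the sum of the borders, against 0.281 and 0.00775 as deposited.

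For each Mu-active plant, the site of highest level that no other leaf plant had was also picked. These sites were at 0.881 (95% exact Poisson interval 0.869 to 0.897) for chr3:175324547-175324555 in plant 74 and at 0.774 for chr10:23459276-23459284 in plant 75. They were at 0.853 for chr4:171719722-171719730 in plant 78, at 0.748 for chr3:178133347-178133355 in plant 79 and at 0.940 for chr1:287587975-287587983 in plant 83. Each of these 5 was read about equally at both borders, for instance 16102 left and 15993 right reads in plant 75. Plant 76 differed: its site of this kind, chr7:120042249-120042257, was at 0.0572 (0.0523 to 0.0625), because each of its 16 sites found at 0.1 or more in it alone had at least 1 count in another leaf plant.

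The remaining sites of Mu-active leaf alone were mostly low and in 1 plant. Of the 864590 sites, 717916 (83.0%) were read in 1 plant, 92014 in 2, 29856 in 3, 13531 in 4, 7360 in 5 and 3913 in 6. The median highest count in a library was 1 at sites of 1 plant, 2 at sites of 2 or 3 plants, 3 at sites of 4, 5 at sites of 5 and 8 at sites of 6. Sites with both borders read in at least 1 library made up 8.07%, 22.3%, 42.0%, 63.3%, 82.6% and 93.8% of the sites of 1 to 6 plants. In 69.2% of the 864590 the highest count was 1, and 18315 (2.12%) had at least 10 counts in a library. Outside leaf, 37.3% of them were read in at least 1 of the 38 undiluted libraries of endosperm, root and pollen. All 38 came from plants labelled Mu-active, among them the 6 plants of the leaf libraries. They include the endosperm libraries that also carry a B73 MuKiller label.

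The sites of Mu-inactive leaf alone were almost all single reads. Of 11754 sites, 10642 (90.5%) had a highest count of 1, and 12 had 10 counts or more. Read in 1 plant only were 11705, with 45 in 2 plants and 4 in 3 plants. In the other tissues, which came from Mu-active plants only, 116 of them (0.987%) were read. Only 2 of the 11754 had both borders read in a library. The 5 with the highest summed counts had 13 to 15. Of these, chr5:113604066-113604074 had 15 right reads, all in plant 2, chr8:10504604-10504612 had 14 left reads, chr10:56425422-56425430 had 14 right reads and chr2:188464630-188464638 had 13 right reads, also all in plant 2. The fifth, chr1:274555339-274555347, had 7 counts in plant 1 and 6 in plant 2, with 12 right reads and 1 left read. No Mu-active leaf library had a count at any of the 5.

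Reading at both borders separated the groups as well. Among sites with at least 10 counts in a library, 92.8%, 91.7%, 92.9%, 91.5%, 91.9% and 91.6% were read at both borders in the Mu-active plants, and 60.4%, 62.5% and 77.0% in the Mu-inactive plants. The means were 92.1 ± 0.65% in Mu-active leaf and 66.6 ± 9.0% in Mu-inactive leaf, 25.4 points apart without overlap (exact permutation p = 0.0119, two-sided). In Mu-inactive leaf only 39 to 53 sites per plant reached 10 counts, most of them resident. Without resident sites and the sites within 10 bp of them, an alternative added after seeing the data, the shares were 92.3% in Mu-active leaf and 19.7% in Mu-inactive leaf. That last value is a mean over plants. Summed over libraries, it rested on 33 sites with 10 to 49 counts, 5 of them read at both borders. A site read in several libraries was counted in each, so the 33 are not all distinct. Among sites with at least 50 counts the shares were 94.2% in Mu-active leaf and 82.9% in Mu-inactive leaf, 11.3 points apart (exact permutation p = 0.0119). Outside the resident sites and their neighbours, 70.8 to 86.96% of sites with 5 to 9 counts were read at both borders in the Mu-active plants and 0 to 6% in the Mu-inactive plants. At 2 counts the shares were 33.3 to 34.3% in Mu-active plants 74, 75, 76 and 79 but 12.6% and 13.0% in plants 78 and 83, and 0 to 3.51% in the Mu-inactive plants. Plants 78 and 83 were also the lowest of the Mu-active plants at 3 to 4 and at 5 to 9 counts. Their libraries had fewer single-count sites, 58.6% and 56.3% of all sites, against 73.7 to 79.5% in the other Mu-active libraries. Low counts in these plants may thus not compare with those of the others, and the cause was not tested. The groups did not overlap in any of the 4 count classes that both held.

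The share of all counts from the left border was 50.4 to 51.5% in Mu-active leaf and 47.9 to 50.5% in Mu-inactive leaf. These ranges overlapped, and the means of 50.8 ± 0.37% and 48.97 ± 1.4% differed by 1.88 points (exact permutation p = 0.0238, two-sided). Without Mu-inactive plant 2 the difference was 1.33 points and without plant 3 it was 1.64 points, both with an exact permutation p of 0.0714. Without the resident sites and their neighbours it was -0.22 points (exact permutation p = 0.571), with 49.5% in Mu-active leaf and 49.7% in Mu-inactive leaf.

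Low-abundance sites lay in different places in the 2 groups. For this, all sites with a relative abundance below 0.1 on chromosomes 1 to 10 were counted, 75976 to 217380 per Mu-active plant and 855 to 5398 per Mu-inactive plant. The outer 10% at both ends of each chromosome, which is 20% of the length, held 37.1%, 37.2%, 37.2%, 37.1%, 37.1% and 37.1% of these sites in the Mu-active plants, and 20.2%, 20.3% and 21.7% in the Mu-inactive plants. The means of 37.1 ± 0.071% in Mu-active leaf and 20.7 ± 0.84% in Mu-inactive leaf were 16.4 points apart (exact permutation p = 0.0119, two-sided, SD over 6 and 3 plants). The difference was 13.3 points with at least 2 counts required, 20.7 with at least 5, and 10.9 with both borders required, where Mu-inactive leaf had 27.3 ± 10.1%. The length of a chromosome was taken as the highest site position on it. In bins of 5% of the length, Mu-active leaf had 12.6% of its sites in the last bin and 9.32% in the first, and 1.76% in the bin from 40 to 45%. Mu-inactive leaf had 5.61% in the last bin, 4.64% in the first and 4.39% from 40 to 45%, and its bins ranged from 4.05 to 5.82%.

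**Figure D3:**
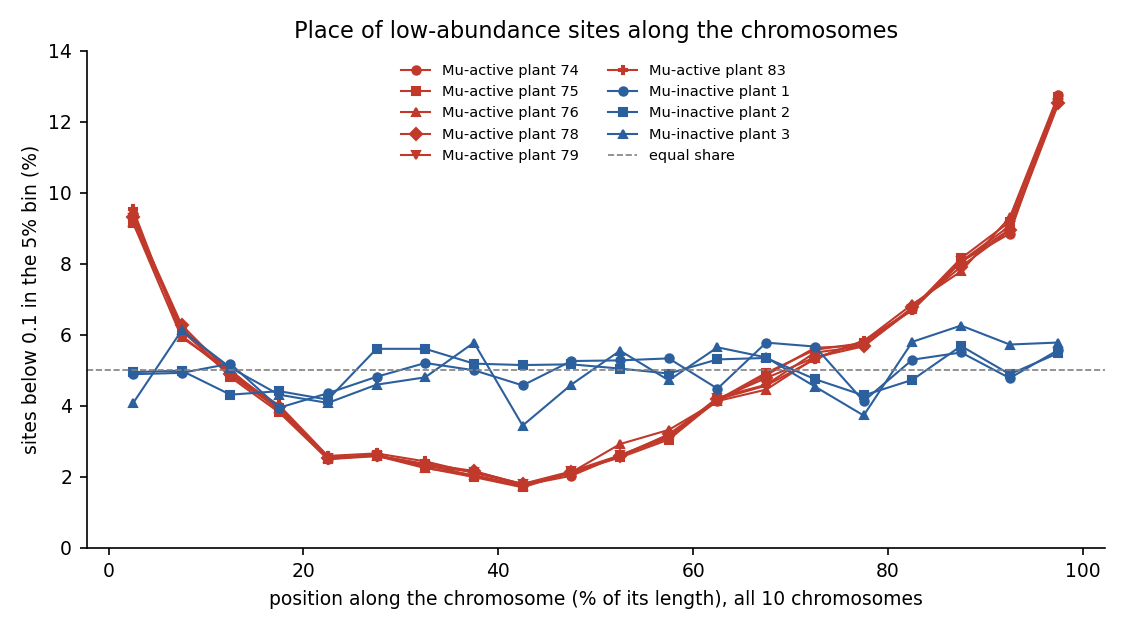
Share of sites below a relative abundance of 0.1 (percent of a plant's sites) in 20 bins of 5% along the chromosome, all 10 chromosomes together, for each Mu-active plant (red) and each Mu-inactive plant (blue). The Mu-active plants follow 1 curve from 9.32% in the first bin through 1.76% between 40 and 45% to 12.6% in the last, and the Mu-inactive plants stay near the dashed line of an equal share.

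The higher share at the ends in Mu-active leaf was found on every chromosome. It ran from 31.3% on chromosome 4 to 43.1% on chromosome 7 in Mu-active leaf and from 14.6% on chromosome 5 to 28.0% on chromosome 6 in Mu-inactive leaf. Sites of exactly 1 count had 36.8% in Mu-active leaf and 20.4% in Mu-inactive leaf, and sites seen in a single leaf plant had 36.0% in Mu-active leaf and 20.3% in Mu-inactive leaf, both alternatives added after seeing the data. Among Mu-active sites alone, the share at the ends was 36.1% for sites of 1 plant and 42.1% for sites of 6 plants. Of the 176 sites at 0.1 or more in a Mu-active plant, 33.5% lay in the ends.

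The chromosomes also took unequal shares. Mu-active leaf had a higher share than Mu-inactive leaf on chromosomes 3, 5, 6, 8 and 9 and a lower share on chromosomes 1, 2, 4 and 10, each with an adjusted p of 0.0132 (two-sided exact permutation test, Benjamini-Hochberg over the 10 chromosomes). On chromosome 4 the shares were 10.6 ± 0.079% in Mu-active leaf and 13.9 ± 0.75% in Mu-inactive leaf. On chromosome 8 they were 8.11 ± 0.18% in Mu-active leaf and 5.77 ± 0.32% in Mu-inactive leaf, and on chromosome 6 they were 8.03 ± 0.18% in Mu-active leaf and 5.70 ± 0.21% in Mu-inactive leaf. Chromosome 7 had 7.82 ± 0.15% in Mu-active leaf and 7.79 ± 0.41% in Mu-inactive leaf (adjusted exact permutation p = 0.857), a difference of 0.03 points. Relative to length, the shares ran from 0.884 to 1.18 in Mu-active leaf and from 0.671 to 1.24 in Mu-inactive leaf. The difference on chromosome 5, 0.70 points, was 0.34 points without Mu-inactive plant 1 (adjusted exact permutation p = 0.0794). The shares depended on the count required: with at least 2 counts, 5 of the 10 chromosomes passed the threshold and the differences on chromosomes 4, 7 and 9 turned in direction.

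**Figure D4:**
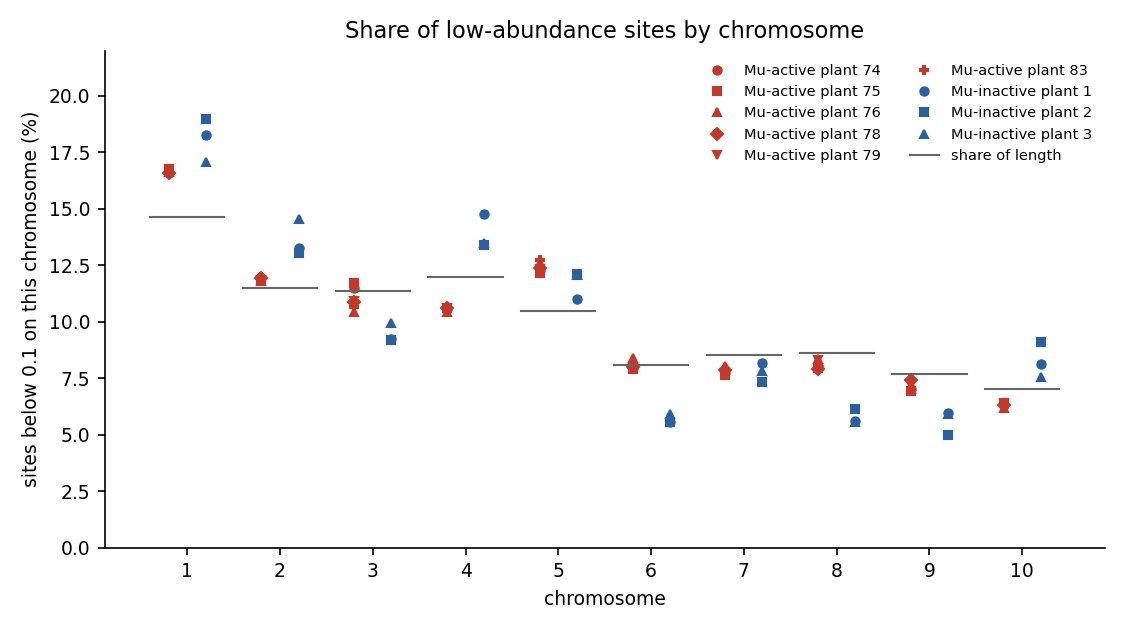
Share of a plant's sites below a relative abundance of 0.1 on each chromosome (percent), for the Mu-active plants (red, left) and the Mu-inactive plants (blue, right), with the chromosome's share of the length as a grey line. The groups do not overlap except on chromosome 7, and on chromosome 3 the Mu-active plants spread from 10.4 to 11.7%.

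Among the Mu-active plants, chromosome 3 varied most, with 11.5% and 11.7% in plants 74 and 75 and 10.4 to 10.9% in the other 4. Low-abundance sites were therefore counted around the sites at 0.1 or more, in plants that carried such a site at that level and in Mu-active plants that had it below 0.01. This was done after seeing the data and is a description over 174 sites. Within 1 to 10 kb, the carrying plants had 1.85 ± 0.37 times the share of low sites that the other Mu-active plants had (SD, n = 6), with 1.73, 2.29, 2.33, 1.54, 1.63 and 1.56 in plants 74, 75, 76, 78, 79 and 83. The ratio was 1.30 ± 0.060 at 10 to 100 kb, 1.08 ± 0.051 at 100 kb to 1 Mb and 1.04 ± 0.024 at 1 to 5 Mb, and it was above 1 in 6 of 6 plants at each distance. With both borders required it was 1.53 ± 0.31 within 1 to 10 kb and above 1 in 6 of 6 plants, and 1.15 ± 0.19 at 10 to 100 kb, above 1 in 5 of 6. Under that setting it was above 1 in 5 of 6 plants at 100 kb to 1 Mb and in 4 of 6 at 1 to 5 Mb. With at least 2 counts it was above 1 in 5 of 6 plants at 100 kb to 1 Mb and in 6 of 6 at the other distances. Plants share many of these sites, so the ratios are not independent.

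A few loci stood out, and they were picked for their high ratios. Over all 174 sites the median ratio at 100 kb to 1 Mb was 1.05, and 122 were above 1. Between 100 kb and 1 Mb from chr6:100192533-100192541, carried at a mean level of 0.357 by plants 74, 76 and 78, there were 158, 89 and 169 low sites in those plants, against 57, 47 and 46 in plants 75, 79 and 83. As a share of all low sites this was 4.58 times as many in the carrying plants, and the Mu-inactive plants had 1, 1 and 2. Around chr5:118794320-118794328, carried by plant 76 alone at 0.542, plant 76 had 102 low sites and the other Mu-active plants 49 to 83, which was 4.12 times as many by share because plant 76 had the fewest sites in all. On chromosome 3, plants 74 and 75 carried chr3:166753668-166753676 at a mean of 0.364 and had 271 and 464 low sites around it, against 49, 111, 130 and 131 in plants 76, 78, 79 and 83, 2.64 times as many by share. Each of these loci had a second site, carried by the same plants, between 100 kb and 1 Mb away. These were chr6:99331360 at a mean of 0.675, chr5:118644802 at 0.621 and chr3:166960668 at 0.697. The low sites therefore cannot be tied to 1 site of each pair.

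**Figure D5:**
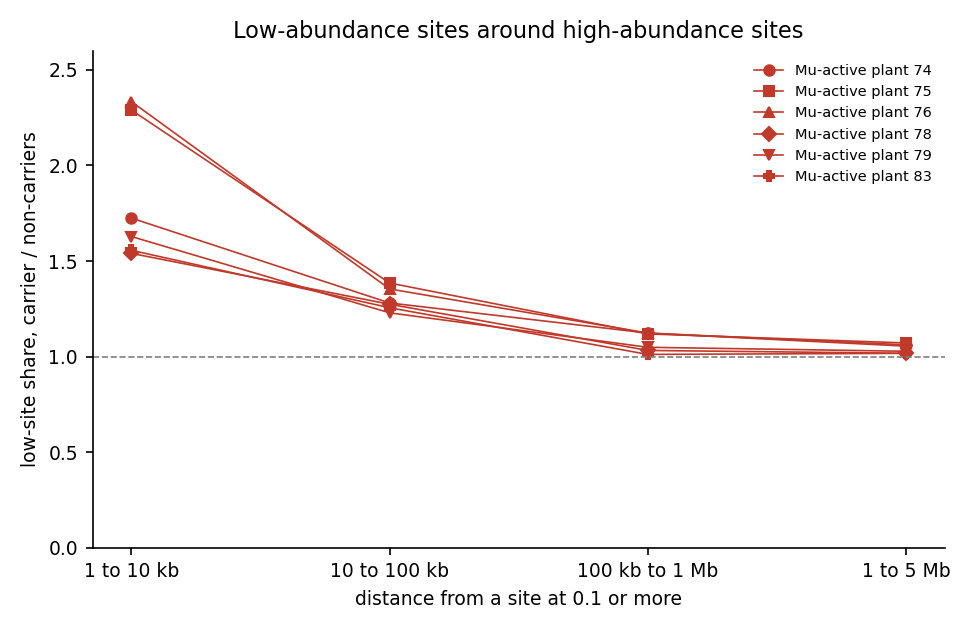
Share of low-abundance sites around sites at a relative abundance of 0.1 or more, in each Mu-active plant that carried them, divided by the mean share around the same sites in the Mu-active plants that had them below 0.01, by distance. The ratio is 1.54 to 2.33 within 1 to 10 kb and 1.02 to 1.07 at 1 to 5 Mb, and the dashed line marks 1.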

How the data were processed

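Insertion sites were counted in leaf of 6 Mu-active and 3 Mu-inactive plants. The values used were whole-number counts per insertion site, as deposited by the authors in a table for both borders together and a table for each border. Bowtie2 is named in the submitters' processing notes, without a version. The sources used here do not give the genome build, the insertion caller, filters or any collapsing of reads. The combined count equalled the sum of both borders except at 163 of 2253850 sites, where it was 2 times the larger border, per a comparison of the deposited tables. No genome of the files' build was used, so gene context and sequences are not analysed here. All columns were tied to a sample (0 without one).

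Relative abundance, thinning, border shares and places were computed per library and averaged per plant. Groups were compared with two-sided exact permutation tests over plants. Single sites were tested with edgeR 4.0.16 (quasi-likelihood, counts summed per plant, library sizes set to the reference level, sites with at least 10 counts in at least 3 plants), the SE being the log2 fold change over the root of the test statistic. DESeq2 1.42.0 and other settings were alternatives. On simulated data with 673 sites, the edgeR step recovered 99% of 200 sites changed by 4-fold and called 1.48% of the unchanged sites. Each unchanged site was simulated with 1 mean for both groups, and all sites had 1 fixed dispersion. Sites limited to 1 group, or high in some Mu-active plants only, were not simulated. These rates therefore do not hold for such sites, which were most of those tested. Python 3.11.15, numpy 2.4.6, pandas 2.3.3, scipy 1.17.1, matplotlib 3.10.9 and R 4.3.3 were used. The members and lists were chosen with earlier results of these data known. Sites named in the text followed a rule: the 5 highest in Mu-inactive leaf among sites of at least 10 counts in all 12 libraries; the 5 highest in Mu-active leaf among sites of at least 10 counts in each Mu-active plant and none in Mu-inactive leaf; the 5 largest folds among sites called lower, and among sites called higher with a count in every Mu-inactive plant; the highest site of each Mu-active plant that no other leaf plant had; and the 5 highest sums among sites of Mu-inactive leaf alone. Resident sites named only for their spread among Mu-active plants, and the loci with neighbouring low sites, were added after their values were seen.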

Additional observations from a re-analysis of the deposited data

Results flagged for a closer look

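Outliers were sought among the 6 Mu-active plants in 68 sets of values by Dixon's gap test. Chance flags about 5% of such sets, and 2 were flagged. The share of low-abundance sites on chromosome 6 was 8.40% in plant 76, against 7.93 to 7.996% in the other Mu-active plants. The relative abundance at chr2:31759211-31759219 was 0.000578 in plant 75, against 0.573 to 0.694 in the other Mu-active plants.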

How the results depend on the processing

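No paired analysis was possible because Mu-active and Mu-inactive plants share no plant number. Alternatives were another scale, another count minimum, both borders, single border tables, the first library of a plant, leaving out each plant, and, chosen after seeing the data, sums of borders, single-count sites and sites of 1 plant. The class differences, the number of sites after thinning, the share read at both borders and the share in the chromosome ends kept their direction and their side of the threshold under every alternative run.

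Leaving out 1 plant at a time, the log2 differences of the 4 classes ran from 1.35 to 1.43, 3.94 to 4.27, 8.88 to 9.38 and 4.77 to 6.10, and after thinning to 1 reference level from 6.998 to 7.96. Thinned to 1 library total, the difference was 6.55. The difference in sites read at both borders ran from 22.3 to 30.6 points, that in the ends from 16.1 to 16.9 points and that of the left border from 1.33 to 2.66 points; chromosome 7 ran from -0.19 to 0.22 points. Over the other settings the difference in both borders ran from 11.3 to 72.6 points and that in the ends from 10.9 to 20.7 points. With 1 plant left out, chromosomes past the threshold numbered 8 to 9, sites called higher 401 to 621 and sites called lower 4 to 12. Under the other settings these ranges were 3 to 9, 150 to 54723 and 0 to 29.

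Chromosomes past the threshold fell to 5 with at least 2 counts, 3 with at least 5 counts and 3 with both borders required. Reversed differences were 1.40, -0.64 and -0.82 points on chromosomes 4, 7 and 9 with at least 2 counts, 1.11, -1.76 and -0.48 points on chromosomes 4, 8 and 9 with at least 5 counts, and 0.51 and -2.60 points on chromosomes 4 and 8 with both borders required. Chromosome 7 was at -0.25 points in the right border table and at -0.036 points for sites of 1 leaf plant. The left border difference was -0.22 points without resident sites. Except where fewer or more sites were tested, the cause was not tested.

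Against 634 sites called higher and 8 lower, 54723 were called higher and 4 lower of 54852 with a filter of 1 count in 3 plants, and none of those 4 was among the 8. With no filter, 150 were called higher and 0 lower of 876604 by edgeR, with 152263 and 83 at an unadjusted p under 0.05. In the first library of each plant 411 were called higher, with 176 in the left border table and 165 in the right border table, with fewer sites tested. Called lower were 29 with library totals as the scale, 5 with the scale from leaf sites and 4 with the sum of borders. Of the resident sites, DESeq2 with its own scale called 8 higher and 10 lower. By edgeR with its TMM scale, 1 was called higher and 10 lower. The site at chr5:120060250 had a log2 fold change of -0.58 with library totals as the scale and -0.75 in the right border table.

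Depth limits the rest: 3 counts equalled 0.000127 to 0.000348 in Mu-active leaf and 3.72e-05 to 5.97e-05 in Mu-inactive leaf, so a site with no count in a library was not shown to be absent below these levels. Most sites of Mu-active leaf alone were read at 1 count, below these levels.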

Other observations

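In windows of 1 Mb, Mu-active leaf had a low-abundance site in nearly all of the 2127 windows, with 3 to 16 windows empty per plant. Mu-inactive plants 1, 2 and 3 had 310, 366 and 1063 empty windows with far fewer sites in all. The 10% of windows with the most sites held 29.2 to 29.97% of the sites of a Mu-active plant. In Mu-inactive plants 1, 2 and 3 such windows held 25.4%, 27.3% and 38.3%. This share depends on the number of sites, 855 to 5398 per Mu-inactive plant and 75976 to 217380 per Mu-active plant. Equal numbers of sites were not compared, so these shares do not show whether clustering differed.

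Sites common to both groups were often read in other tissues: 213 of the 260 had a count in an undiluted library of endosperm, root or pollen, against 37.3% of sites of Mu-active leaf alone and 0.987% of sites of Mu-inactive leaf alone. Those libraries all came from Mu-active plants, and the Mu-inactive plants gave leaf only. The shares of 37.3% and 0.987% are therefore unlike by design.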
